A study of Mus musculus with 4 samples.

Results

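Cycling multipotent progenitor-like cells were taken from single-cell RNA sequencing of mouse bone marrow by their own transcripts. A cell was selected when its barcode held at least 1 UMI (unique molecular identifier, the tag that marks 1 captured transcript) each of Kit, Mki67 and Top2a. Kit is the stem cell factor receptor, Mki67 encodes the proliferation antigen Ki-67, and Top2a is the topoisomerase that untangles DNA before division. The cell also had to hold fewer than 10 Mpo UMIs per 10000, no UMI of Klf1, Car1, Pf4, Dntt, Ms4a2 or Cd79a, which mark erythroid, megakaryocytic, lymphoid, basophil or mast and B cells, and a UMI of at most 1 of the stem cell genes Hlf, Procr, Mecom and Fgd5. The rule gave 240 members among 16280 cells, 63 and 31 in the Idh1-WT libraries 1 and 2, and 68 and 78 in the Idh1-R132H libraries 1 and 2. The first condition left 2041 cells, the Mpo limit 1049, the excluded genes 407 and the stem cell limit 240. The members were thus chosen by the counts of these 14 genes in the same cells, so the values of those genes are given as a description only. The Mpo values nearest the limit were 9.97 per 10000 inside and 10.02 outside, and 167 cells were dropped for holding 2 or more stem cell genes. Of the members, 148 held a single Kit UMI, 90 a single Mki67 UMI and 17 a single Top2a UMI.

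The 4 libraries came from 4 chimeric mice, 2 per group. Donor cells carried an EYFP reporter in both groups and, in the Idh1-R132H group, a heterozygous Idh1-R132H allele, both recombined by tamoxifen given over 5 days. After 2 weeks, EYFP+ lineage-negative marrow was grafted into irradiated hosts without supporting marrow. Chimeric marrow was collected 16 weeks after transplantation. Per mouse, 4000 cells each of 3 EYFP+ sorts were pooled in 1 tube: CD45.1+ total hematopoietic cells, lineage-negative Sca1+ cKit+ (LSK) cells and lineage-negative cKit+ (LK) cells. The promoter that drives the recombinase, the age and sex of donors and hosts, and the number of donors per graft are not given in the sources used here, and p-values measure the spread between these 4 samples. The pooled sort sets the proportions of cells, so no share describes unsorted marrow.

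Multipotent progenitors lie between hematopoietic stem cells, most of which are quiescent, and progenitors committed to single lineages. They divide often, carry Kit and Cd34 on their surface, and as a mixed population hold cells primed towards lymphoid and myeloid fates, marked by the receptor Flt3, beside cells primed towards megakaryocytes, erythroid cells and mast cells, marked by the transcription factor Gata2. The R132H change gives isocitrate dehydrogenase 1 the ability to make 2-hydroxyglutarate, which competes with 2-oxoglutarate at the TET enzymes, at many histone demethylases and at other dioxygenases.

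The members were deeply sequenced, with a median of 13269 and 11710 UMIs in Idh1-WT 1 and 2 and of 11016 and 11417 in Idh1-R132H 1 and 2. The whole libraries held 40364701 to 56353466 UMIs. Of the filtered cells, 443 barcodes occurred in 2 or more libraries, but no member barcode was a member in another library and 1 was a filtered cell there. RNA free in the droplets was estimated at 568 to 645 UMIs per member, 4.78% to 5.65% of its UMIs. Idh1 itself was at 23.7, 26.8, 23.1 and 30.7 CPM (UMI counts of the members of a library, normalised and scaled to 1000000) in the same order of libraries. The groups overlapped, and these 3' end counts do not read the mutated codon, so this level does not check the genotype. Transcripts of both sexes were found: members with a UMI of Xist, transcribed from the inactive X chromosome, and none of the Y-linked genes made up 76.2%, 41.9%, 47.1% and 41.0% of the members, and 7, 9, 30 and 35 members held a Y-linked UMI. Xist-only members were thus commonest in Idh1-WT 1, and that split is given below for some lists and genes, not for all. In the same order of libraries, 0, 1, 6 and 5 members held both a Xist and a Y-linked UMI and fall in neither subset of the split. Whether these were doublets or held free RNA was not tested.

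The label was checked against markers, and 46 of the 240 members went against it by their S100a8 or Irf8 level. S100a8, a calcium-binding protein abundant in neutrophils and their precursors, split the members with a wide gap: no member lay between 17.9 and 157 UMIs per 10000, and the medians on the 2 sides were 5.15 and 1842. The 35 members above the gap were 10 and 4 in the Idh1-WT libraries and 3 and 18 in the Idh1-R132H libraries, 15.9%, 12.9%, 4.41% and 23.1% of the members. These S100a8-high members held secondary granule genes at levels far above the rest, as in the plot of S100a8 and Irf8 per cell. Camp, the antimicrobial peptide cathelicidin, was at 51140 CPM against 169 in the remaining members, lactotransferrin (Ltf) at 4837 against 24.9 and lipocalin 2 (Lcn2) at 7248 against 47.3. Cebpe, the transcription factor of granulocyte maturation, was at 704 against 7.31. In the other direction, Cd27 was at 28.1 against 159 and Hoxa9 at 9.36 against 63.2.

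**Figure D1:**
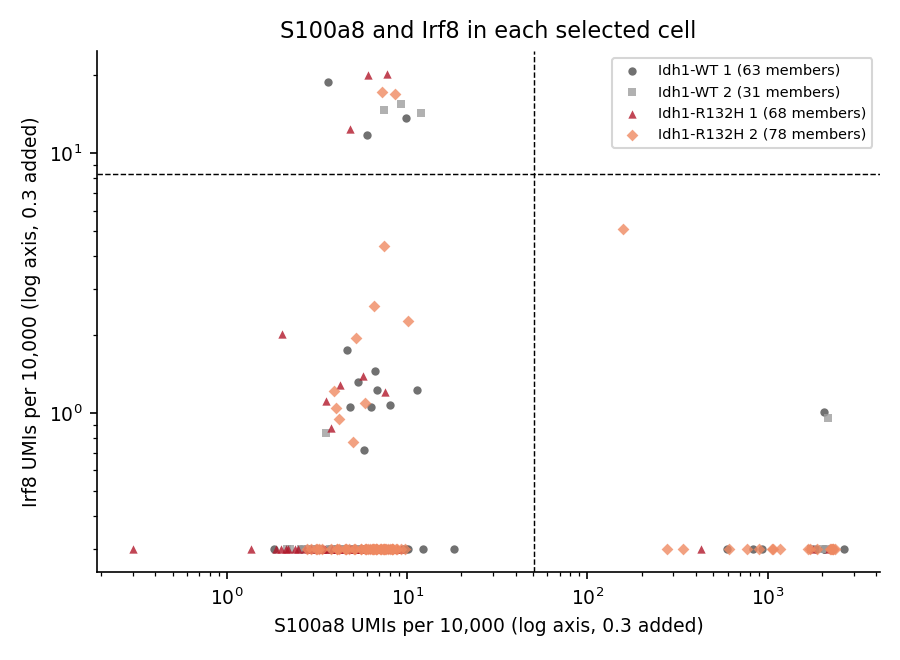
S100a8 (horizontal) and Irf8 (vertical) of each of the 240 members, in UMIs per 10000 on log axes with 0.3 added, by library; dashed lines mark the limits of 50 and 8. A cluster of 35 members lies to the right of the S100a8 limit and 11 lie above the Irf8 limit, and both hold cells of every library.

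A further 11 members, 3, 3, 3 and 2 per library, held 11.4 or more Irf8 UMIs per 10000, with none between 4.79 and 11.4. Irf8 is the transcription factor of dendritic cell and monocyte fate. Summed over these Irf8-high members, the invariant chain Cd74 was at 21100 CPM against 65.3 in the remaining members. The class II gene H2-Aa was at 8156 against 68.3. Batf3, a factor of conventional dendritic cells, was at 171 with 0 in the remaining members. Not every cell shared the Cd74 level: the members at 11.4 (Idh1-WT 1) and 14.3 (Idh1-WT 2) Irf8 UMIs per 10000 held 0 Cd74 UMIs. Another, in Idh1-R132H 1, held 16.2 Cd74 UMIs per 10000. The limits of 50 and 8 per 10000 were set after these values were seen. A single Kit UMI was held by 25 of the 35 S100a8-high members and by 112 of the 194 remaining members. Among cells that met every other part of the rule, Kit was found in 35 of 196 S100a8-high cells (17.9%, exact Clopper-Pearson 95% interval 12.8 to 24.0%), in 11 of 50 Irf8-high cells (22%) and in 194 of 501 others (38.7%, 34.4 to 43.1%). Mature B-like cells, which should lack Kit, gave 9 of 393 (2.29%) at a median depth of 1736 UMIs. Thinned to 2000 UMIs per cell, the shares were 5.70%, 0%, 11.2% and 1.85%. The S100a8-high members had a median of 14854 UMIs against 11565 in the remaining members. The part of doublets in both sets was not tested. The name cycling multipotent progenitor-like is kept below for the remaining 194 members (50, 24, 62 and 58 per library) and for the 240 as the rule gives them. Genotype values are for the 240 unless the remaining 194 are named.

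Cd34, Cd27, Sox4 and Adgrl4, progenitor genes listed as markers, were each found in most of the remaining 194 members. Cd34, the sialomucin of early progenitors, was found in 172 of them (88.7%), Cd27, a receptor of the TNF receptor family, in 155 (79.9%), the transcription factor Sox4 in 156 (80.4%) and the adhesion receptor Adgrl4 in 135 (69.6%). In 384 mature B-like cells, at a median of 1728 UMIs, the shares were 5.73%, 9.38%, 5.21% and 2.08%. With every cell thinned to 2000 UMIs the members still gave 44.9%, 25.8%, 30.9% and 20.6%. Cells that met the other parts of the rule with no UMI of Mki67 or Top2a gave 41.1%, 28.7%, 41.5% and 22.6% thinned. Those with 2 or more stem cell genes gave 39.2%, 29.1%, 42.25% and 22.6%, both without S100a8-high and Irf8-high cells. Of these genes only Cd34 was thus higher in the members than in both. Cd48, a SLAM family receptor acquired as stem cells become multipotent progenitors, was found in 56.7% (22.2% thinned), but B-like cells gave 42.2% and cannot serve as its background, because B cells express it. The primary granule gene Elane, a neutrophil protease, had a UMI in all 194 members and in 74.2% of the B-like cells. Its thinned share was 50.5%, against 79.8% of the 99 B-like cells with enough UMIs. Thinning removes more free RNA from the deeper members, so these shares cannot decide whether Elane was background. Relative to S100a8 and S100a9, Elane in the members was at 1.19 to 1.47 times its level in free RNA. Prtn3, another primary granule gene, was at 2.93 to 5.28 times. Il7r, the interleukin 7 receptor of lymphoid progenitors, was found in 1 of 194 members.

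Flt3 and Gata2 divided the remaining members without separating them cleanly. Flt3 was found in 64 of 194 (33.0%, 1.30% in B-like cells) and Gata2 in 97 (50%, 1.56% in B-like cells). Thinned to 2000 UMIs, their shares were 8.76% and 10.3%. Flt3 alone was found in 45 members, Gata2 alone in 78, both in 19 and neither in 52. Per library, Flt3 was found in 34% and 25% of Idh1-WT and in 40.3% and 27.6% of Idh1-R132H members, and Gata2 in 56% and 45.8% against 54.8% and 41.4%. Both ranges overlap between the groups. Members with Gata2 alone also held more Cpa3, the mast cell carboxypeptidase, at 57.3 CPM against 7.21 in members with Flt3 alone. Apoe, apolipoprotein E, was at 507 against 157. Members with Flt3 alone held more Ccl9, a chemokine of myeloid cells, at 70.3 against 25.5, and Litaf at 54.1 against 14.9. These pairs are descriptions of cells split by 1 or a few UMIs, and a cell without a UMI is not shown to lack the transcript.

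The members covered the cell cycle from DNA synthesis to mitosis, as the plot of cell cycle load shows. The summed UMIs of 20 S phase genes had a median of 23.9 per 10000 and those of 20 G2 and M phase genes a median of 30.9 in the remaining 194 members. Per library, the S phase medians were 24.3 and 12.7 for Idh1-WT, against 22.2 and 28.9 for Idh1-R132H. The G2 and M phase medians were 29.1 and 38.6 for Idh1-WT, against 34.2 and 30.3 for Idh1-R132H. The 24 members of Idh1-WT 2 thus leaned towards G2 and M phase, and the groups overlapped for G2 and M phase and for S phase. The 35 S100a8-high members had medians of 11.0 for S phase and 33.3 for G2 and M phase. Non-cycling cells of the same gate, with a Kit UMI but none of Mki67 or Top2a, had 7.85 and 1.60.

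**Figure D2:**
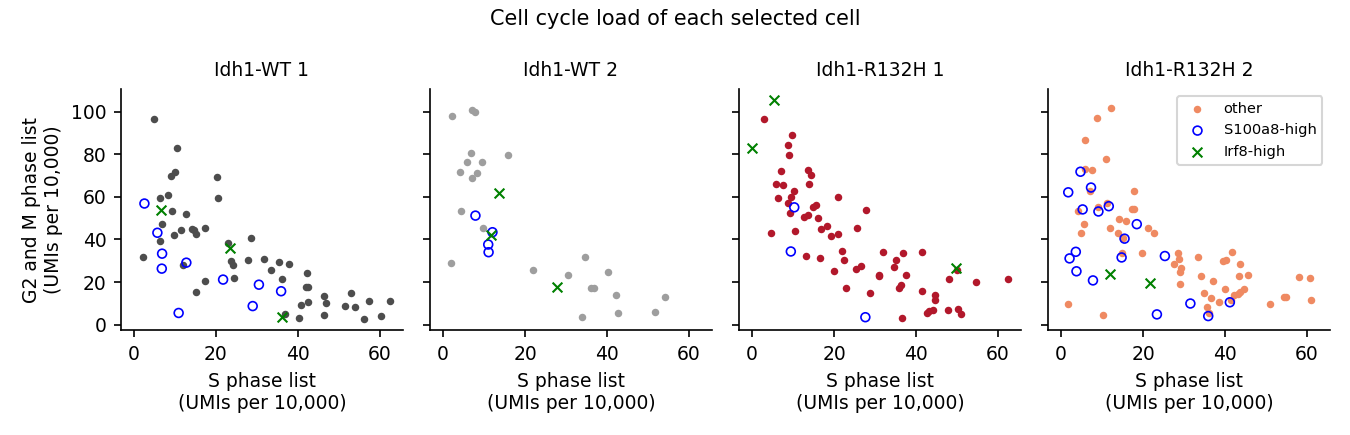
Summed UMIs per 10000 of the S phase list (horizontal) and of the G2 and M phase list (vertical), 1 point per member and 1 panel per library, with S100a8-high and Irf8-high members marked. In each panel the points run from high S and low G2 and M load to the reverse. Idh1-WT 2 has the fewest members, and its 24 members outside both marked sets have the lowest S phase median of such members, 12.7.

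The genes that led the remaining members over non-cycling cells of the same gate were those of mitosis and of chromatin assembly. This contrast was fixed by the rule and carries no test. Prc1, which bundles the microtubules of the central spindle, was at 132.4 CPM against 2.77, the spindle motor Kif11 at 52.9 against 1.23, and Ube2c, the ubiquitin-conjugating enzyme of the anaphase-promoting complex, at 496 against 24.0. The mitotic kinase Cdk1 was at 373 against 23.7 and cyclin A2 (Ccna2) at 140 against 5.86. The replication-dependent histone Hist1h2ap was at 8664 against 268. In the other direction, non-cycling cells held more of the surface antigen Ly6a, 226 against 85.1, of Mycn, 66.9 against 23.6, of cyclin D2 (Ccnd2), 326 against 125, and of lymphotoxin beta (Ltb), 200 against 55.9. Cycling cells were also the deeper ones, with a median of 11565 UMIs against 6078.

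Promoters of 5 genes of the phase lists are shown because these lists describe the cycling of the members in the values above. Sequences are from RefSeq windows on GRCm38.p6, read 5′ to 3′ on the gene's strand with bases flanking the motif, which is in capitals. TTTGAA, the core of the cell cycle homology element, was searched on both strands in the 250 bases before the start, and TTCCCGC, a common form of the E2F site, in the same way.

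Prc1, chr7:80294419-80294475, plus strand: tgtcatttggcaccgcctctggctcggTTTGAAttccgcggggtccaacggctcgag
Cdk1, chr10:69352913-69352954, minus strand: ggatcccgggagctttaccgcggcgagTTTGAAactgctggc
Ube2c, chr2:164769873-164769928, plus strand, motif on the other strand: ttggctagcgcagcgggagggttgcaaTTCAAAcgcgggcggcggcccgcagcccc
Uhrf1, chr17:56303262-56303322, plus strand: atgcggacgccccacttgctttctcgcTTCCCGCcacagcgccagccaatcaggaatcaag
Rrm1, chr7:102441601-102441661, plus strand: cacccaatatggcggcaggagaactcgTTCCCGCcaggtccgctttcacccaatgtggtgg

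TTTGAA lay in 6 of 17 G2 and M phase genes with a window (35.3%), against 18.3% of 27025 genes. TTCCCGC lay in 4 of 15 S phase genes (26.7%), against 4.38% of all genes and in 0 of the 17 G2 and M phase genes. A match is a description of the letters and not a bound site. The first bases of the motifs shown lay 30, 15 and 29 bases before the start in Prc1, Cdk1 and Ube2c and 48 and 67 bases before it in Uhrf1 and Rrm1. Cdk1 held another TTTGAA, not shown, that began 71 bases before the start.

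Beside 561 stem cell-like cells, which carry Kit and 2 or more of the stem cell genes, the remaining members held more Rrm2, the ribonucleotide reductase subunit of S phase, at 129 CPM against 58.7. Lgals3, galectin 3, was at 28.5, 136.9, 8.47 and 99.2 CPM in the libraries of the members and at 13.8, 10.99, 11.6 and 15.1 in those of stem cell-like cells, so Idh1-R132H 1 went the other way. The members held less Mycn, 23.6 against 66.7, less Ly6a, 85.1 against 191, and less Mllt3, a regulator of stem cell maintenance, 27.1 against 54.9. Beside 446 cycling cells with 10 or more Mpo UMIs per 10000, they held more of Car2, carbonic anhydrase 2, at 1065 against 55.6, of the homeobox gene Meis1, 110 against 11.3, and of Ctla2a, a protease inhibitor, 645 against 58.7. Elane was at 400 CPM in the remaining members, 417 in stem cell-like cells and 10910 in the Mpo-high cells. These values describe populations cut by the same rule and were not tested.

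The share of members was compared between the groups. Members made up 1.40% and 0.884% of the filtered cells of the Idh1-WT libraries and 1.77% and 1.76% of those of the Idh1-R132H libraries, a difference of 0.624 percentage points. Both Idh1-R132H libraries lay above both Idh1-WT libraries. An exact permutation test over libraries, two-sided, gave p = 0.33, the smallest p that 2 against 2 allows. Of Kit cells of the same gate, members made up 24.8%, 16.3%, 24.8% and 26.99%, so Idh1-WT 1 and Idh1-R132H 1 were alike and Idh1-WT 2 was low (exact permutation p = 0.33). With cells thinned to 5000 UMIs, the shares of filtered cells were 1.22%, 0.954%, 1.90% and 1.28%, and those of the gate were 16.5%, 14.2%, 23.6% and 17.2%. Without Idh1-WT 2 the difference in the gate was 1.10 points, against 5.34 with it. With 2 or more UMIs asked of Mki67 and Top2a, the differences were 0.281 points of filtered cells and 1.64 points of the gate (exact permutation p = 0.33 and 0.667).

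**Figure D3:**
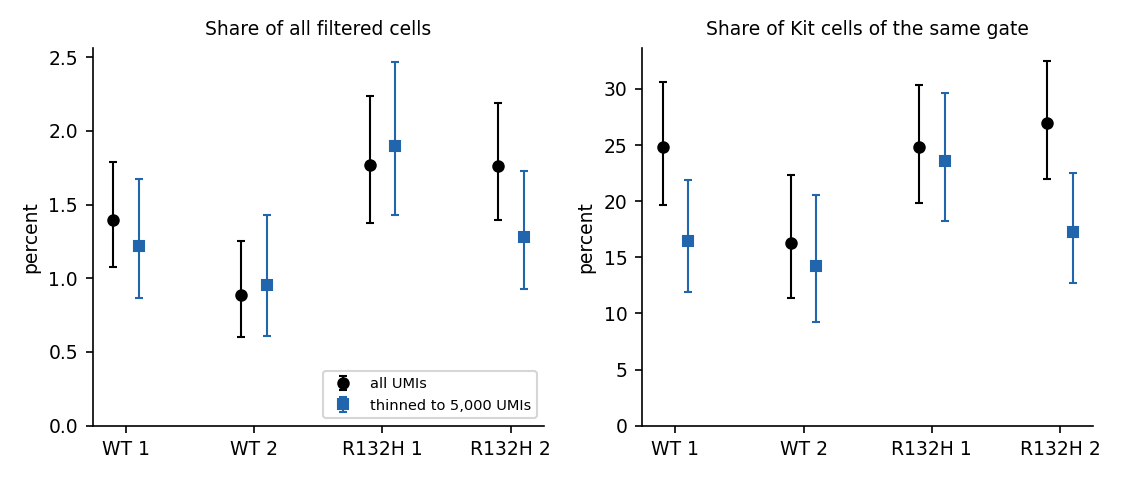
Share of members among filtered cells (left) and among Kit cells of the same gate (right), in percent per library, with exact Clopper-Pearson 95% intervals that cover counting error only, from all UMIs and from cells thinned to 5000 UMIs. Idh1-WT 2 has the lowest share in both panels, 0.884% and 16.3% from all UMIs.

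For the genotype comparison across genes, the UMIs of the members were summed per library and tested with edgeR, so a change in the mix of members and a change within each cell cannot be told apart. No gene passed edgeR's quasi-likelihood test at a Benjamini-Hochberg adjusted p under 0.05 among 6588 genes tested in the 240 members (0%). At an unadjusted p under 0.05 there were 236 genes (3.58%), and DESeq2 called 0 genes, with 17 at an unadjusted p under 0.05. The libraries of the groups did not overlap in 1063 genes that were higher in Idh1-R132H (16.1%) and in 1024 that were lower (15.5%), and the median log2 difference over all genes was -0.0018. Leaving out the S100a8-high and Irf8-high members, an alternative chosen after seeing the data, 2 of 6024 genes passed (0.0332%), Tubb5 and Malat1, and 321 reached an unadjusted p under 0.05 (5.33%). Single libraries weighed heavily: without Idh1-R132H 2, 50 genes passed, 47 of them lower in Idh1-R132H, and among these were Camp, S100a8, Ltf and Ngp. That library held 18 of the 35 S100a8-high members. Without Idh1-WT 1, Idh1-WT 2 or Idh1-R132H 1, the counts were 20, 3 and 9.

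Tubb5, a beta tubulin of dividing cells, was at 2097 and 1861 CPM in Idh1-WT and at 2678 and 2419 in Idh1-R132H in the remaining 194 members. It rose by 0.36 ± 0.07 (log2, SE; edgeR's quasi-likelihood test, adjusted p = 0.0325; range over its alternatives 3.88e-05 to 1). Malat1, a nuclear long noncoding RNA, was at 8016 and 9092 against 10140 and 10240 CPM, a rise of 0.25 ± 0.05 with the same adjusted p (edgeR; range 2.32e-07 to 1). In neither gene did the groups overlap, a pattern that 17.2% of all genes tested in these 194 members showed in this direction. With RLE factors, library totals, no filter on low counts, thinned members or DESeq2, no gene passed in these 194 members. Over all 240 members Tubb5 differed by 0.33 and Malat1 by 0.21, and neither passed.

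Of the 20 genes of the type I interferon response 14 passed the filter on low counts, most were higher in Idh1-R132H, and none passed edgeR's test. Their median log2 difference was 0.35 against -0.0018 over all genes, 11 were higher and 3 lower in Idh1-R132H, and the groups did not overlap in 7, all higher, beside the 16.1% of all genes. In the remaining 194 members the median was 0.33, and with RLE factors or library totals over all members it was 0.34 and 0.37. Isg15, the ubiquitin-like protein that interferon induces, was at 16.6 and 21.5 CPM in Idh1-WT, against 57.2 and 47.6 in Idh1-R132H. Its log2 difference was 1.51 ± 0.34 (SE; edgeR, adjusted p = 0.624; range over its alternatives 0.0128 to 1). It was carried by 12 of 63 and 7 of 31 Idh1-WT members and by 19 of 68 and 27 of 78 Idh1-R132H members, and 1 member of Idh1-R132H 1 held 12 of that library's 47 UMIs. Rtp4, a receptor transporter induced by interferon, was at 29.6 and 37.6 against 60.9 and 59.2 CPM (0.89 ± 0.28). It was carried by 17 of 63 and 8 of 31 Idh1-WT members and by 23 of 68 and 28 of 78 Idh1-R132H members. A single member held 5 of 25 and 4 of 14 Rtp4 UMIs in the Idh1-WT libraries, and 8 of 50 and 13 of 56 in the Idh1-R132H libraries. Ifi27 was at 211 and 190 against 235 and 302 CPM (0.41 ± 0.16).

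The promoter of Isg15 is shown because this gene had the lowest p of its list. The capitals mark 3 overlapping matches of the core of the interferon-stimulated response element, written here as GAAA, any 2 bases and GAAA, searched on both strands in the 250 bases before the start (RefSeq, GRCm38.p6).

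Isg15, chr4:156200848-156200923, minus strand: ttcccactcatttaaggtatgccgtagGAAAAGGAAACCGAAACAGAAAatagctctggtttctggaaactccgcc

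The motif lay in 7 of 13 interferon genes with a window (53.8%), against 3.46% of 27025 genes. Its first match in Isg15 began 78 bases before the start.

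Among the genes that define multipotent progenitors, none passed edgeR's test, and 12 of 17 tested were higher in Idh1-R132H (median 0.11). The groups did not overlap in 2 of the 17, both higher, beside 16.1% of all genes. In the remaining 194 members 12 of 16 were higher (median 0.15), and the groups did not overlap in 5, all higher, beside 17.2% of all genes. The median was 0.37 in remaining members with Xist and no Y-linked UMI and 0.008 in those with no Xist UMI. Cd34 was at 246 and 188 CPM in Idh1-WT and at 295 and 280 in Idh1-R132H, with a log2 difference of 0.38 ± 0.15. Egfl7, a secreted factor of endothelial and stem cells, was at 127 and 91.2 against 156 and 146 CPM (0.42 ± 0.18). Sox4 was at 133 and 158 against 230 and 158 CPM (0.43 ± 0.19), and Cd48 at 95.9 and 140 against 184 and 131 CPM (0.47 ± 0.21), both with overlapping groups. In members with no Xist UMI, Cd48 was lower in Idh1-R132H by a log2 difference of -0.22. Flt3 was at 35.5, 34.9, 41.4 and 27.5 CPM and Cd53, a tetraspanin of blood cells, at 91.2, 123, 110 and 97.3, both with overlapping groups and with a sign that changed between alternatives.

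**Figure D4:**
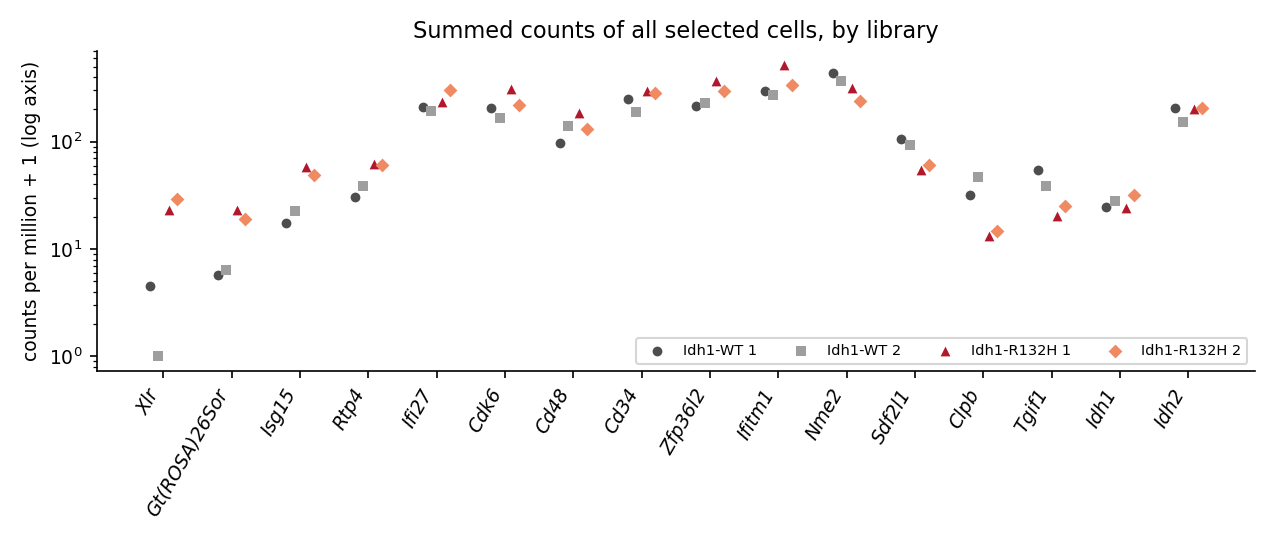
Normalised CPM + 1 (log axis) of 16 genes in the summed counts of all 240 members, 1 symbol per library. Isg15 (16.6 and 21.5 against 57.2 and 47.6) and Nme2 (437 and 365 against 316 and 236) show groups that do not overlap, and Idh1, Idh2 and Cd48 show groups that do.

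None of the other stem and progenitor genes described here passed over the 240 members. Cdk6, the kinase that sets how readily stem and progenitor cells enter the cycle, was at 207 and 164 CPM in Idh1-WT and at 308 and 220 in Idh1-R132H (0.48 ± 0.18). Zfp36l2, an RNA-binding protein that promotes mRNA decay, was at 216 and 228 against 368 and 293 CPM (0.58 ± 0.15), and Ifitm1, an interferon-induced membrane protein also listed as a stem cell gene, at 298 and 271 against 514 and 336 CPM (0.57 ± 0.18). Meis1 was at 84.1 and 61.7 against 118 and 85.7 CPM (0.42 ± 0.22). The groups did not overlap in any of these 4, a pattern that 16.1% of all genes showed in this direction. Zfp36l2 and Ifitm1 were named after their values were seen, and Ifitm1 also by its list. Of the 13 stem cell genes tested 6 were higher and 7 lower. Myc was at 99.5, 61.7, 62.1 and 91.0 CPM, with overlapping groups.

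Transcript counts of Gt(ROSA)26Sor and Xlr separated the groups with few UMIs. Gt(ROSA)26Sor is the noncoding transcript of the Rosa26 locus (GENCODE vM21, GRCm38, chr6:113067428-113077333, minus strand, antisense class), a common site for reporter alleles; the labels do not place the EYFP allele. It gave 4 and 2 UMIs in the Idh1-WT libraries, against 18 and 17 in the Idh1-R132H libraries, 4.74 and 5.37 against 21.9 and 17.98 CPM (log2 difference 1.97 ± 0.58). Xlr, a lymphoid-regulated gene of a multicopy family on the X chromosome (chrX:53777118-53797706), gave 3 and 0 UMIs in the Idh1-WT libraries, against 18 and 27 in the Idh1-R132H libraries. Reads of its near-identical copies may be split among them, so its counts are uncertain. The ratio per UMI, pooled over the libraries of a group, was 10.5 with an exact counting interval of 3.36 to 52.7. That interval treats UMIs as independent and does not measure the spread between mice or cells. Its adjusted p was 0.276 (edgeR; 0.00195 to 1.00 over its alternatives). The 3 Idh1-WT UMIs came from 1 member, and the 45 Idh1-R132H UMIs came from 5 and 12 members, with 11 of the 18 UMIs of Idh1-R132H 1 in a single member. In the remaining 194 members the UMIs were 3, 0, 7 and 7, too few for the filter on low counts, so most Idh1-R132H UMIs lay in S100a8-high or Irf8-high members. Gt(ROSA)26Sor gave 4, 1, 18 and 10 there, and did not pass that filter either. Eif2s3y, on the Y chromosome, was at 11.8 and 26.8 against 29.2 and 36.0 CPM (0.96 ± 0.40), beside the unequal numbers of members with Y-linked UMIs given above.

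A further 5 genes, Nme2, Sdf2l1, Clpb, Alg3 and Tgif1, were named after their values were seen. All had lower levels in Idh1-R132H and none passed edgeR's test in the members. Nme2, a nucleoside diphosphate kinase, was at 437 and 365 CPM in Idh1-WT and at 316 and 236 in Idh1-R132H (-0.55 ± 0.15). Its difference in stem cell-like cells was -0.58 and passed there (edgeR, adjusted p = 0.0304; 0.0175 without S100a8-high cells). Sdf2l1, a chaperone partner in the endoplasmic reticulum, was at 105 and 91.2 against 53.6 and 59.2 CPM (-0.82 ± 0.21). Clpb, a mitochondrial disaggregase, was at 30.8 and 45.6 against 12.2 and 13.8 CPM (-1.45 ± 0.38), and Alg3, a mannosyltransferase of N-glycan assembly, at 34.3 and 34.9 against 9.74 and 15.9 CPM (-1.40 ± 0.38). Tgif1, a homeodomain repressor in TGF-beta signalling, was at 53.3 and 37.6 against 19.5 and 24.3 CPM (-1.11 ± 0.32). The groups did not overlap in any of these 5, beside the 15.5% of all genes in this direction.

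Cell cycle genes as lists had medians near that of all genes. Of 19 S phase genes tested 9 were higher and 10 lower in Idh1-R132H (median -0.04), and of 20 G2 and M phase genes 12 were higher and 8 lower (median 0.0068), with 0 passing edgeR's test in either list. In the remaining 194 members 10 of 19 and 9 of 20 were higher. Prc1 was at 92.3 and 126 against 158 and 134 CPM (0.47 ± 0.19), and Cdc6, the loader of the replicative helicase, at 24.9 and 13.4 against 11.0 and 8.46 CPM (-1.11 ± 0.48). The histone gene Hist1h2ae, named after its values were seen, was at 99.5 and 67.1 against 122 and 146 CPM (0.62 ± 0.20), and its close copies may share reads. In subsets by sex-linked transcripts each median had opposite signs. Among remaining members with Xist and no Y-linked UMI (38, 9, 31 and 20 members), the G2 and M phase median was 0.24 with 18 of 20 genes higher, and the S phase median was -0.19 with 12 of 17 lower. Among those with no Xist UMI (12, 14, 26 and 34 members), the G2 and M phase median was -0.25 with 13 of 19 lower, and the S phase median was 0.29 with 13 of 17 higher. The difference between these subsets was not tested. The interferon median was 0.28 and 0.32 in the same order.

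Enzymes that make or use 2-oxoglutarate ranged widely in level. Idh2, the mitochondrial isoform, was at 204, 150.3, 199.6 and 203 CPM (0.15 ± 0.17, overlapping groups). Of the 9 isocitrate dehydrogenase and 2-hydroxyglutarate genes tested, 2 were higher and 7 lower (median -0.02), and in the remaining 194 members 5 were higher and 4 lower (median 0.02). Of these, 4 were higher and 4 lower with Xist and no Y-linked UMI, and 6 of 6 tested were higher with no Xist UMI. The list held Got1, the cytosolic aspartate aminotransferase, at 27.2 and 18.8 against 12.2 and 14.8 CPM (-0.84 ± 0.40). Of 8 DNA methylation and TET genes, 3 were higher and 5 lower (median -0.04), against 4 and 3 of 7 (median 0.04) in the remaining 194. The groups did not overlap in 2 of the 8, both higher, and in 1 of the 7, beside 16.1% and 17.2% of all genes. Dnmt3a was at 14.2, 16.1, 12.2 and 16.9 CPM, and Tet2, at 5 to 10 UMIs per library, did not pass the filter on low counts. Of 13 other dioxygenases, 8 were higher and 5 lower. The groups did not overlap in 3 that were higher and 1 that was lower, beside 16.1% and 15.5% of all genes. The H3K4 demethylases Kdm5b, at 10.7 and 10.7 against 19.5 and 23.3 CPM (1.00 ± 0.44), and the X-linked Kdm5c, at 5.92 and 5.37 against 14.6 and 15.9 CPM (1.39 ± 0.64), had groups that did not overlap. Of 13 glycolysis genes 10 were lower (median -0.12), and 9 in the remaining 194 (median -0.07). The groups did not overlap in 5, all lower, beside 15.5% of all genes, and in the remaining 194 in 4 lower and 1 higher. Among the 5 was Ldha, lactate dehydrogenase A, at 547 and 561 against 465 and 486 CPM. Immediate early genes had medians of 0.10 in remaining members with Xist and no Y-linked UMI and -0.28 in those with no Xist UMI. Fos of that list was at 182 and 231 against 158 and 150.2 CPM (-0.39 ± 0.17), and Bad, a pro-apoptotic Bcl2 protein, at 73.4 and 61.7 against 46.3 and 36.0 CPM (-0.76 ± 0.25). None of these passed.

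Lists of mature myeloid genes followed the 46 members described above. The 8 neutrophil marker genes summed to 62870 and 83160 CPM in Idh1-WT, against 20580 and 83160 in Idh1-R132H over all members, and to 1530, 1343, 1195 and 1718 in the remaining 194. Their median log2 difference was -0.40 over all members, with 6 of 7 lower, and 0.0015 in the remaining members, with 4 of 7 higher. The 11 primary granule genes had medians of -0.25 and 0.07 (10 tested) in the same order. MHC class II genes had medians of -0.54, with 5 of 6 lower, and 0.10, with 4 of 6 higher. Cd74 over all members was at 695, 2195, 942 and 617 CPM. Of its 587, 818, 774 and 583 UMIs, a single member per library held 505, 401, 428 and 355. Idh1-WT 2, where the members numbered 31, held 3 Irf8-high members, and 1 of these had 0 Cd74 UMIs. Direction in these lists therefore rested on which members were counted.

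Genotype differences were set beside those of non-cycling cells of the same gate. No gene differed between the populations in edgeR's genotype by population term over all cells (0 of 7549, 0%; 270 at an unadjusted p under 0.05, 3.58%). Without S100a8-high and Irf8-high cells 2 of 7080 did (0.0282%; 302 unadjusted, 4.27%). Tgif1 was lower in Idh1-R132H by a log2 difference of -1.24 in the remaining members and higher by 0.49 in non-cycling cells, a difference of -1.76 ± 0.40 (edgeR, adjusted p = 0.0386). In non-cycling cells it was at 37.6 and 48.9 against 72.8 and 48.1 CPM. Hnrnpa3, a splicing regulator, differed by 0.55 ± 0.13 with the same adjusted p (edgeR). Over all cells the adjusted p were 0.55 for Tgif1 and 0.98 for Hnrnpa3, and with no filter on low counts neither passed. Without S100a8-high and Irf8-high cells, thinned counts called Hnrnpa3 and Malat1 and not Tgif1, and leaving out Idh1-R132H 1 called Ccl5 and Neil3 only. Without Idh1-WT 1 Tgif1 was not called, and without Idh1-WT 2 or Idh1-R132H 2 Hnrnpa3 was not called. Isg15 differed by 1.45 in the remaining members and by 0.08 in non-cycling cells, and the difference of 1.32 ± 0.46 did not pass (edgeR, adjusted p = 0.90).

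**Figure D5:**
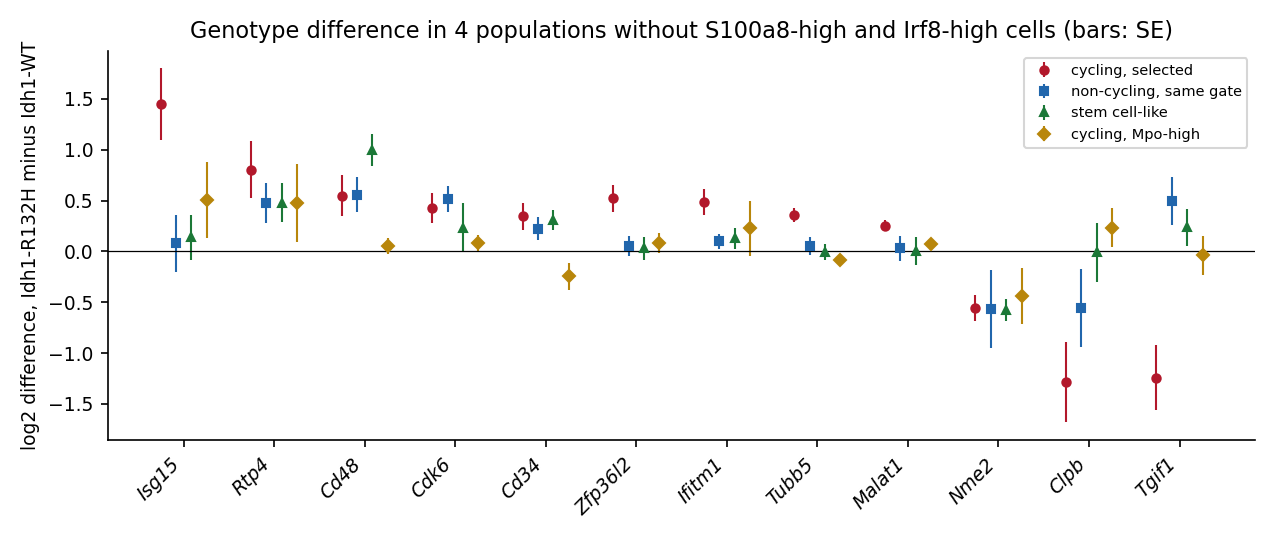
Log2 difference of Idh1-R132H minus Idh1-WT for 12 genes in the remaining 194 members and in the 3 compared populations, with bars of 1 SE, all without S100a8-high and Irf8-high cells. Nme2 is lower in all 4 populations, between -0.44 and -0.57, whereas Isg15 stands at 1.45 in the members and between 0.08 and 0.51 in the others.

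In the compared populations edgeR called 17 of 7011 genes in non-cycling cells (0.242%), 3 of 8003 in stem cell-like cells (0.0375%) and 10 of 8905 in Mpo-high cells (0.112%). Values in the members are given beside some of them, with no test of the difference except for non-cycling cells. Cd48 passed in stem cell-like cells with a log2 difference of 0.99 and stood at 0.47 in the members. Gt(ROSA)26Sor passed in all 3, at 2.62, 2.55 and 1.36, and stood at 1.97. Cdk6 passed in non-cycling cells at 0.54 and stood at 0.48. In non-cycling cells Cd74 had the lowest adjusted p, at -1.27. The class II genes H2-Aa, H2-Ab1 and H2-Eb1 also passed there, at -1.005, -0.83 and -0.997. The direction of class II genes in the members rested on which members were counted, as given above. S100a10 passed in non-cycling cells at 0.44, against 0.13 ± 0.13 in the members, and Ccl6 at 1.29, against -0.21 ± 1.16. Neither passed in the genotype by population term. Xlr passed in non-cycling and Mpo-high cells at 7.07 and 4.70, and stood at 3.29, fitted values that depend on the prior count where a library holds 0 UMIs. Without S100a8-high and Irf8-high cells the counts were 4 (0.0585%), 3 (0.0377%) and 4 (0.0458%), and Gt(ROSA)26Sor passed in non-cycling and stem cell-like cells. The other genes called in non-cycling cells were then Gm10076, Hspa8 and PISD. Cdk6, S100a10, Ccl6, Xlr, Cd74 and the class II genes no longer passed there.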

How the data were processed

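Chimeric marrow of 4 mice was profiled with 10x 3' version 2 libraries. The deposited files hold UMI counts per gene and barcode, unfiltered. The submitters' processing notes name Cell Ranger 4.0.0, Seurat and the GRCm38 and mm10 builds. A barcode counted as a cell from 500 UMIs and 200 genes upwards, with mitochondrial UMIs limited to 10%, and 98.7% of features matched GENCODE vM21 (used for positions).

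Member counts were summed per library and compared with edgeR 4.0.16 (TMM, filter on low counts, quasi-likelihood test, Benjamini-Hochberg threshold 0.05; R 4.3.3, limma 3.58.1), with the 14 rule genes left out. CPM in genotype comparisons are TMM-normalised, and levels of populations are plain CPM of summed counts. DESeq2 1.42.0 was an alternative. Other steps used Python 3.11.15, numpy 2.4.6, pandas 2.3.3, scipy 1.17.1 and matplotlib 3.10.9. The procedure was tested on simulated data, where it missed most small changes and the share of false calls was above the threshold set, so both single calls and their absence are uncertain. Intervals cover counting error only.

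The members and gene lists were chosen with earlier results of these data known. Genes eligible for naming were all genes called, up to 3 per list with the lowest p, Idh1, Idh2, Cd48, Cd53, Cd34, Flt3, Cdk6, Myc, Tet2, Dnmt3a and Gt(ROSA)26Sor, and the 20 with the highest ratios to other cells. Not all of them are printed. The comparison with all other filtered cells, led by H2-Ab1 at 553.6 against 157.4 CPM, is not described. Several lists, ribosomal protein genes among them, are not described either. Genes shown for the S100a8-high, Irf8-high, Flt3 and Gata2 subsets, and Tubb5, Malat1, Xlr, Zfp36l2, Nme2, Sdf2l1, Clpb, Alg3, Tgif1, Hnrnpa3 and Hist1h2ae, were chosen after their values were seen. No doublet caller was run. Leaving out the 5% of members with most UMIs, or members with mature-cell markers, was tried instead. Other alternatives changed the normalization, filters, depth, rule limits, sex-linked subset, free RNA and libraries.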

Additional observations from a re-analysis of the deposited data

How the results depend on the processing

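Over all 240 members, 13 of 17 alternatives that kept every library called 0 genes by edgeR or DESeq2. The others called 2 with equal member numbers (Nupr1 and Xlr), 4 with no filter on low counts (Cst3, Isg15, Xcr1 and Xlr), 1 under 20 Mpo UMIs per 10000 (Xlr) and 1 without members with mature-cell markers (Cst3), besides 2 without S100a8-high and Irf8-high members. Leaving out 1 library gave 3 to 50. Without S100a8-high and Irf8-high members, an alternative chosen after seeing the data, the count was 3 in Xist-carrying members (Ifitm1, Malat1 and Zfp36l2), 1 with free RNA subtracted (Ngp) and 0 to 15 with a library left out. The genotype by population term gave 2 genes thinned (Cd74 and H2-Aa), 2 without S100a8-high and Irf8-high cells (Tgif1 and Hnrnpa3, also with RLE factors; Hnrnpa3 and Malat1 thinned), and 2 to 22 with a library left out (2 to 8 without those cells). Without those cells the compared populations gave 4 genes in non-cycling and 4 in Mpo-high cells. Among genes whose log2 difference is printed for the members, S100a10 and Ccl6 aside, signs changed for Cd48 at -0.22 in members with no Xist UMI, Idh2 at -0.012 without Idh1-WT replicate 2 (to 0.43 with another library left out), and Meis1 at -0.050 in Xist-carrying members without S100a8-high and Irf8-high cells. The signs of S100a10 and Ccl6 in the members were not followed over the alternatives. A further 10 genes had no stable sign and are given as levels only or not at all, with the opposite sign for Cd53 in 25 of 36 alternatives, Flt3 in 20 of 33, Camp in 16 of 35, Cd74 in 14 of 36, S100a8 in 14 of 35, Myc in 8 of 36, Idh1 in 7 of 31, Dnmt3a in 7 of 26, Cst3 in 7 of 36 and Xist in 6 of 34. The share of filtered cells differed by 0.281 points with 2 or more UMIs of Mki67 and Top2a, and by 0.366 to 0.881 with a library left out (1.10 to 9.59 for the gate). The causes of these shifts were not tested.

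The labels' replicate numbers do not state a pairing, and same-numbered libraries correlated by 0.107 in their deviations (0.0625 without S100a8-high and Irf8-high members). With the replicate number as a block, 0 genes were called over all members (266 at an unadjusted p under 0.05) and 1 without those members (Myl10). The number of members, 31 in Idh1-WT 2, limits the precision of every value.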
